A study of Mus musculus with 16 samples.

Results

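The nuclear genes for the subunits of the mitochondrial respiratory chain and the ATP synthase were followed in inguinal white adipose tissue (iWAT), the subcutaneous fat depot of the mouse groin. The genes were chosen by symbol: those starting with Nduf and one of the letters a, b, c, s or v (complex I), Sdha to Sdhd (complex II), Uqcr (complex III), Cox4 to Cox8 (complex IV) and Atp5 (complex V, the ATP synthase). Of the 55487 genes in the count table, 95 had such a symbol. The isoforms Cox8b, Cox7a1 and Cox6a2 and the pseudogene Ndufa12-ps, 4 genes in all, were left out by name. A further 2 genes, Ndufb4c and Ndufs6b, had at least 10 counts in fewer than 4 libraries. The remaining 89 genes all passed the filter on low counts and entered the test. They comprise 39 genes of complex I, 8 Ndufaf genes, 4 genes of complex II, 8 of complex III, 13 of complex IV and 17 of complex V. The Ndufaf genes encode factors that help to assemble complex I and are not part of the finished enzyme, so they are described apart. Ndufa4 is counted with complex I by its symbol, although its protein is known as a subunit of complex IV.

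RNA was sequenced after poly-A selection from male mice, 6 to 7 months old, either lacking Kmo in the whole body (KO) or born to the same litters as wild types (WT). The gene's product, kynurenine 3-monooxygenase, is an enzyme of tryptophan breakdown. Both genotypes received either chow or a high-fat diet (HFD), so that there were 4 animals in each of the groups called WT chow, WT HFD, KO chow and KO HFD. The labels name neither the allele nor the length of the feeding, and each animal gave 1 library.

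Complex I takes electrons from NADH and complex II takes them from succinate. Both pass them through coenzyme Q to complex III, and cytochrome c carries them on to complex IV, where oxygen is reduced. Complexes I, III and IV pump protons, and the ATP synthase uses the resulting gradient to make ATP. Most subunits are encoded in the nucleus, while a small set of core subunits is encoded in mitochondrial DNA. White adipocytes hold few mitochondria, and the beige adipocytes that can arise in the inguinal depot hold many and can release the gradient as heat through Ucp1.

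Libraries held 13824404 to 16909361 counted read pairs. Kmo counts checked the labels: the 8 WT libraries held 40 to 298 counts and the 8 KO libraries 1 to 8. Adipocyte markers were present throughout, with Adipoq at 1610.0 to 3278 CPM (read pairs of a gene relative to the library's total, scaled by TMM factors) and Plin1 at 1872 to 2852 CPM. Skeletal muscle and lymphoid markers varied between libraries of the same group. The summed level of the muscle list ran from 77.9 to 5317 CPM in WT and from 20.1 to 911 CPM in KO libraries on chow, and from 87.9 to 2354 CPM in WT and from 49.4 to 490.0 CPM in KO libraries on HFD. For the lymphoid list the ranges were 13.8 to 971, 20.5 to 871, 8.44 to 537 and 11.1 to 652 CPM in the same order. Merging over sequencing lanes is named in the headers of 12 libraries, while WT chow replicate 2, WT HFD replicates 3 and 4 and KO HFD replicate 1 came from a single lane.

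The genes differed widely in level. Measured per length, as CPM per kb of exon averaged over the 16 libraries, they ran from 0.933 for Cox6b2, an isoform of a complex IV subunit best known from testis, to 614 for Cox6a1, the widely expressed isoform of another small subunit of complex IV. Complex II and complex III were the most even. Complex II ran from 66.7 CPM per kb for the membrane anchor gene Sdhc to 178.5 for Sdha, its flavoprotein, around a median of 115. Complex III ran from 75.3 for Uqcrc1, a core subunit, to 182 for Uqcr11, a small accessory subunit, around a median of 106. Complex I had a median of 50.6 CPM per kb and its highest level at Ndufa2 (166), an accessory subunit. Medians of complex IV and complex V were 79.6 and 52.8 CPM per kb, and the highest gene of complex V was Atp5b (479), the catalytic beta subunit. The assembly factors lay far lower, with a median of 7.68 and a maximum of 16.8 CPM per kb for Ndufaf1. The exon lengths are those of all annotated exons joined, so the scale depends on the annotation. The lowest gene of complex I on it was Ndufb2 (1.98 CPM per kb), an accessory subunit.

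**Figure D1:**
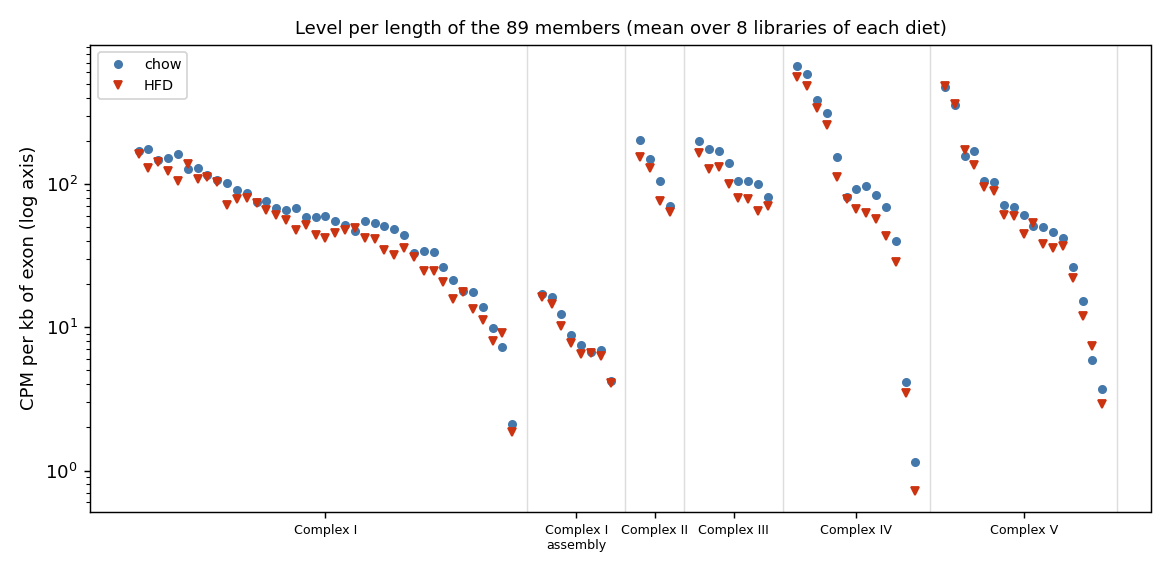
Level of each of the 89 genes in CPM per kb of exon (log axis), ordered by level within each complex; blue circles are means over the 8 chow libraries and red triangles means over the 8 HFD libraries. The assembly factors, with means over all 16 libraries of 4.15 to 16.8, lie low, and most HFD points lie just below their chow points.

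Together the 89 genes took 1.45 ± 0.142% (SD, n = 4) of all counts in chow-fed WT, 1.57 ± 0.238% in chow-fed KO, 1.29 ± 0.115% in HFD-fed WT and 1.26 ± 0.0544% in HFD-fed KO libraries. The widest group was KO chow, at 1.33 to 1.89%, and the narrowest KO HFD, at 1.18 to 1.31%. The highest value of 65 of the 89 genes fell in 1 library, KO chow replicate 2, and that of a further 14 genes in WT chow replicate 3. Lowest values were spread over more libraries, with 24 genes in KO HFD replicate 1 and 23 in WT HFD replicate 2. In KO chow replicate 2 the mean log2 CPM of complex I was 6.82, against 6.41, 6.27 and 6.15 in the other KO chow libraries. The same library was the highest of all 16 for each of the 6 gene sets. Its muscle score (mean log2 CPM of the muscle list) was −0.27 and its lymphoid score 1.60, while its brown and beige adipocyte score was the highest of all, at 5.45. WT chow replicate 3 had the highest muscle score of all, at 6.09.

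**Figure D2:**
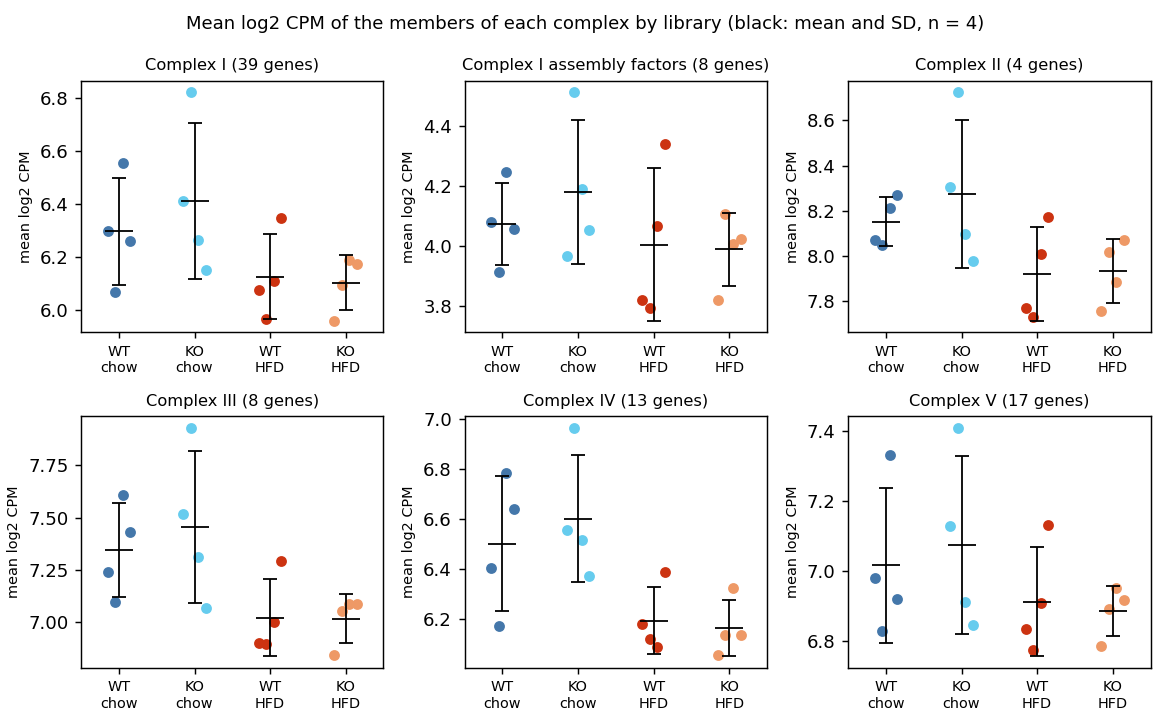
Mean log2 CPM of the genes of each complex in every library, by group; points are libraries, the black line is the group mean and the bars are the SD (n = 4). The highest point of each panel is KO chow replicate 2 and the HFD groups centre lower than the chow groups in all 6 panels, with overlap.

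The genes varied together within the groups. Each group's mean was first subtracted from log2 CPM, so differences between diets and genotypes do not enter. These deviations had a mean pairwise correlation of 0.58 over the 16 libraries, against 0.0020 for pairs among all 16549 genes tested. These are descriptions, since all genes share the same libraries and their scaling. Of the 89 genes, 51 had deviations that correlated over 0.8 with the mean of the others. The highest was Cox4i1, the common isoform of the largest nuclear-encoded subunit of complex IV, at 0.98. A handful of genes did not follow the rest: Atp5g1 (−0.25), Cox4i2 (−0.04), Cox7a2l (0.03) and Ndufa4l2 (0.08). Each of these has a close paralog among the 89 genes, and the pairs are compared further on.

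Lower transcript levels on the high-fat diet were the main difference between the groups. With both genotypes combined, 34 of the 89 genes were lower on HFD than on chow and 0 were higher (edgeR's quasi-likelihood test, adjusted p under 0.05), where 16% of all genes tested were called lower and 17.1% higher. The 34 genes fell by 14.9 to 38.0%, and adjusted p ran from 0.00169 to 0.0475 (edgeR). Log2 fold changes lay below 0 for 81 of the 89 genes, with a median of −0.27, against −0.04 over all genes tested. The median was lowest in complex IV (−0.46) and complex III (−0.41), and lay at −0.29 in complex II, −0.27 in complex I, −0.21 in complex V and −0.15 in the assembly factors. Without KO chow replicate 2 the medians of complex V and of the assembly factors were −0.12 and −0.055, and that of complex IV was −0.26 in the libraries with a muscle score under 4. No test of the difference between complexes was made. Groups overlapped for all 34 genes: none of the 89 genes had its 8 HFD libraries all below or all above its 8 chow libraries, where 2.52% and 4.33% of all genes tested did. In RNA of whole tissue, fewer cells rich in mitochondria and less RNA per cell cannot be told apart. Leaving out any 1 library left 23 to 42 genes called, the lowest without WT HFD replicate 2. That fit called 4995 of 16862 genes tested, against 5471 of 16549 with all libraries. Of the 34 genes, 23 stayed called in all 16 fits without 1 library. The calls of Ndufb11, Ndufb5 and Atp5j2 held in only 4 of them, those of Cox8a in 6, Ndufb8 in 7, Ndufs7 in 8 and Sdha in 11. With the 10 libraries that had a muscle score under 4, 12 genes were called (median −0.23). With the 10 that had a lymphoid score under 4, 14 were called (median −0.29), both with fewer samples. Among all genes tested these fits called 4152 of 17028 and 3544 of 16436.

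**Figure D3:**
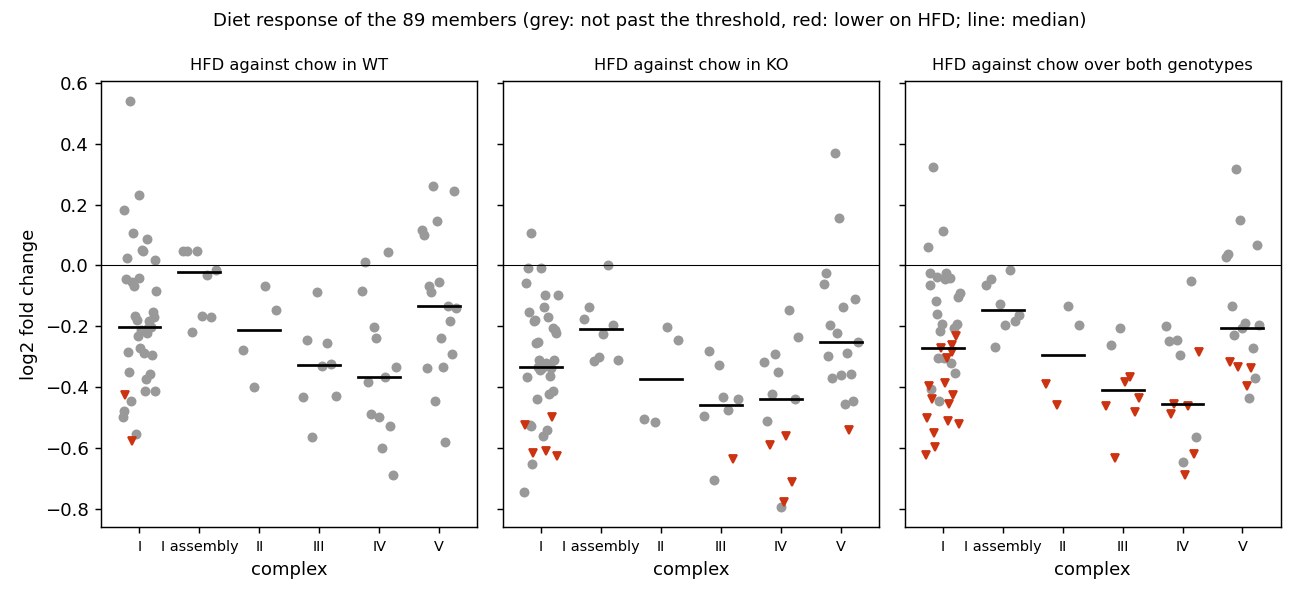
Log2 fold change of HFD against chow for each of the 89 genes by complex, in WT (left), in KO (middle) and over both genotypes (right); red triangles are genes past the threshold, grey circles the others and black lines the medians. From left to right, 70, 85 and 81 of the 89 points lie below 0, and red points number 2, 11 and 34.

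In complex I, 16 of 39 genes were lower on HFD over both genotypes, where 16% of all genes tested were. Ndufa6 encodes an accessory subunit of the LYR protein family in the matrix arm of the enzyme. Its level was 89.8, 63.6, 96.1 and 85.3 CPM in the WT chow libraries and 84.7, 123, 82 and 69.5 CPM in KO chow. On HFD it was 52.4, 50.6, 51.6 and 69.7 CPM in WT and 57.4, 54.3, 64.5 and 57.5 CPM in KO. All 4 KO HFD libraries lay below all 4 KO chow libraries, while WT HFD replicate 4 lay above WT chow replicate 2. The log2 fold change over both genotypes was −0.60 (95% interval −0.85 to −0.35, adjusted p = 0.00169, edgeR), or 33.9% lower. Ndufv2, one of the iron-sulfur subunits of the NADH-oxidising module, had 145, 124, 146 and 140.0 CPM in WT chow and 149, 214, 139 and 119 CPM in KO chow. Its HFD values were 92.9, 92, 101 and 131 CPM in WT and 90.4, 97.4, 98.9 and 115 CPM in KO. Again WT HFD replicate 4 was the highest HFD library, and the log2 fold change was −0.52 (SE 0.11, adjusted p = 0.00304, edgeR). Ndufa10, an accessory subunit of the membrane arm, measured 176, 154, 207 and 221 CPM in chow-fed WT, 195, 283, 195 and 152 in chow-fed KO, 131, 127, 136 and 148 in HFD-fed WT and 133, 138, 148 and 156 in HFD-fed KO libraries. In WT its 4 HFD libraries lay below all 4 chow libraries, and over both genotypes it fell by 0.50 on the log2 scale (adjusted p = 0.0034, edgeR).

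The largest decrease in complex I was that of Ndufa1, a small membrane-arm subunit encoded on the X chromosome, which fell by 0.62 on the log2 scale (95% interval −1.02 to −0.23, adjusted p = 0.0184, edgeR). Its 8 chow libraries ran over 41.1 to 113 CPM (median 67.2) and its 8 HFD libraries over 33.5 to 60.5 CPM (median 41.9). Ndufa2, the most abundant gene of the complex per length, showed no such difference: chow libraries had 77.3 to 142 CPM (median 88.6) and HFD libraries 82.8 to 119 CPM (median 90.0), with a log2 fold change of −0.06 (−0.33 to 0.20). The other 12 genes that were lower include Ndufa12, Ndufb9, Ndufs4, Ndufa5, Ndufc1, Ndufa4, Ndufb8, Ndufb5 and Ndufb11. Ndufs3 and Ndufs7, core subunits of the arm that passes electrons to coenzyme Q, are also among them. The other 23 genes did not pass the test, with log2 fold changes from −0.44 (Ndufb1) to 0.32 (Ndufa4l2), 20 of them below 0. Among the 8 assembly factors none passed the test. The most lowered was Ndufaf3 (−0.27, adjusted p = 0.0665, edgeR), with 21.7 ± 2.23 CPM (SD, n = 4) in chow-fed WT, 23 ± 3.09 in chow-fed KO, 18.6 ± 4.63 in HFD-fed WT and 18.5 ± 1.56 in HFD-fed KO libraries. The most abundant, Ndufaf1, had a log2 fold change of −0.06 (−0.30 to 0.17).

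Complex II, which is also the succinate dehydrogenase of the citric acid cycle, is encoded wholly in the nucleus. The genes of its catalytic part, Sdha and Sdhb, were lower on HFD, and those of its membrane anchor, Sdhc and Sdhd, did not pass the test. Sdhb, the iron-sulfur subunit, measured 211, 203, 230.1 and 241 CPM in WT chow and 245, 343, 215 and 189 CPM in KO chow. On HFD the values were 143, 136, 175 and 217 CPM in WT and 158, 185, 158 and 192 CPM in KO, and only WT HFD replicate 4 and KO HFD replicate 4 reached the lower end of the chow range. Its log2 fold change was −0.46 (SE 0.12, adjusted p = 0.0114, edgeR). Sdha, the flavoprotein, had 748, 708, 754 and 882 CPM in chow-fed WT, 913, 1282, 768 and 639 in chow-fed KO, 559.5, 551, 683 and 757 in HFD-fed WT and 592, 651, 584 and 713 in HFD-fed KO libraries. KO chow replicate 2 was the highest, and the log2 fold change was −0.39 (−0.66 to −0.12, adjusted p = 0.0296, edgeR). The anchor genes Sdhc and Sdhd had log2 fold changes of −0.13 (−0.33 to 0.06) and −0.20 (−0.40 to 0.01), so decreases of the size seen for Sdha lie inside the interval of Sdhd but outside that of Sdhc. The difference between these genes was not tested. In their deviations from the group means over the 16 libraries, the 4 genes kept the closest company of any complex. Their median correlation was 0.88, and this too is a description.

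Complex III had the largest share of lowered genes, 6 of 8, where 16% of all genes tested were called lower. Uqcrb, a subunit of the coenzyme Q binding region, measured 91.9, 59.1, 104 and 77.9 CPM in WT chow and 85.7, 143, 80.6 and 62.8 CPM in KO chow. On HFD it had 49.6, 47.4, 54.5 and 73.7 CPM in WT and 51.5, 60.9, 59 and 56.6 CPM in KO, where each library was below each KO chow library. It fell by 0.63 on the log2 scale (95% interval −0.97 to −0.29, adjusted p = 0.00774, edgeR). Uqcrq, a small subunit, ran over 148 to 247 CPM (median 183) on chow and 119.9 to 163 CPM (median 141) on HFD (log2 fold change −0.44, adjusted p = 0.0148, edgeR). Uqcrh, the hinge protein at the contact of cytochrome c1 with cytochrome c, ran over 123 to 275 CPM (median 167) on chow and 101 to 164 CPM (median 123) on HFD (−0.48, adjusted p = 0.0159, edgeR). The Rieske iron-sulfur protein gene Uqcrfs1, the core subunit gene Uqcrc2 and Uqcr10 were also lower, by 22.4, 23.3 and 27.4%. Uqcr11 (−0.26) and Uqcrc1 (−0.21) did not pass the test.

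Complex IV held the gene with the largest decrease of all 34, Cox6c, a small membrane subunit. WT chow libraries had 238, 195, 265 and 240.2 CPM of Cox6c and KO chow libraries 254, 375, 233 and 180.5 CPM. The HFD values were 147, 131, 134 and 207 CPM in WT and 142, 145, 160.5 and 162 CPM in KO. Only WT HFD replicate 4 reached the chow range, and the fold change corresponds to a level 38% lower (−0.69, 95% interval −0.98 to −0.40, adjusted p = 0.00175, edgeR). Cox7b, another small subunit, measured 107, 85.9, 135 and 112 CPM in WT chow and 119, 188, 107 and 79 CPM in KO chow, against 67.1, 67.5, 79.1 and 90.9 CPM in WT HFD and 69.7, 73.3, 83.8 and 73.6 CPM in KO HFD. It fell by 0.62 on the log2 scale (SE 0.15, adjusted p = 0.00527, edgeR). Cox5a and Cox5b were also lower, by 28.7% and 27.1%. In Cox5b the 4 HFD libraries lay below the 4 chow libraries within each genotype. Cox7a2 and Cox8a, the widely expressed isoforms of their subunits, were lower by 27.5% and 17.9%. Of the genes that did not pass, Cox6b2 had a log2 fold change of −0.65 at only 1.26 ± 0.405 CPM (SD, n = 8) on chow and 0.804 ± 0.24 on HFD. Cox7c was next (−0.57, 95% interval −1.05 to −0.08, adjusted p = 0.0696, edgeR). Its WT chow libraries had 83.9, 59.2, 191 and 74.2 CPM, with replicate 3 far above the rest. The most abundant gene, Cox6a1, had 468 ± 92.1 CPM on chow and 394 ± 31 on HFD (−0.25, adjusted p = 0.109, edgeR).

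**Figure D4:**
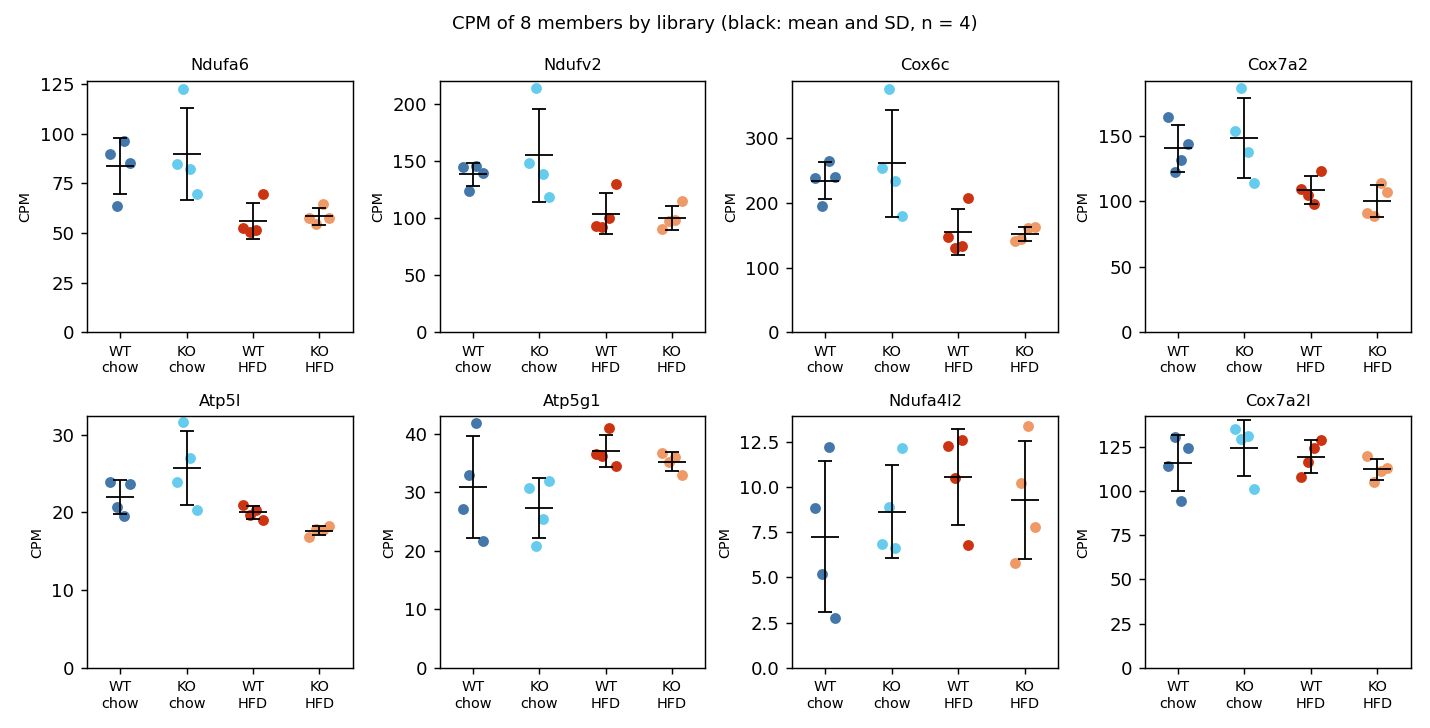
CPM of 8 genes in every library by group, on axes that start at 0; points are libraries, the black line is the group mean and the bars are the SD (n = 4). Ndufa6, Ndufv2, Cox6c and Cox7a2 lie lower in both HFD groups, Atp5l is lowest in KO HFD, and Atp5g1, Ndufa4l2 and Cox7a2l show no decrease past the threshold.

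Complex V had 4 lower genes of 17 (23.5%), not far from the 16% of all genes called lower: Atp5l, Atp5c1, Atp5g2 and Atp5j2. The calls of Atp5j2 and Atp5g2 held in only 4 and 7 of the 16 fits without 1 library. Atp5l encodes subunit g of the membrane part, at the contact between ATP synthase dimers. Its values were 23.9, 20.7, 19.6 and 23.6 CPM in chow-fed WT, 24, 31.6, 27 and 20.3 in chow-fed KO, 20.9, 19.7, 20.3 and 19 in HFD-fed WT and 16.9, 17.9, 17.7 and 18.2 in HFD-fed KO libraries. Within KO the diets did not overlap, and within WT they did. Over both genotypes its log2 fold change was −0.34 (95% interval −0.52 to −0.16, adjusted p = 0.00703, edgeR). Atp5c1, the gamma subunit that turns inside the catalytic head, ran over 284 to 369 CPM (median 328) on chow and 232 to 299.9 CPM (median 251) on HFD (−0.32, adjusted p = 0.00989, edgeR). The genes of the catalytic head itself lay close to 0. Atp5b had 2004 ± 321 CPM (SD, n = 8) on chow and 2053 ± 224 CPM on HFD, a log2 fold change of 0.04 (−0.20 to 0.27), and Atp5a1, the alpha subunit, one of 0.03. Of the 8 genes above 0 over both genotypes, 5 belonged to complex V: Atp5a1, Atp5b, Atp5o, Atp5g3 and Atp5g1.

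The upstream sequences of 3 lowered genes are shown because each holds letters that are known binding motifs of regulators of respiratory chain genes. They are the 250 bases before the RefSeq start site in GRCm38.p6, given 5′ to 3′ on the strand of the gene, and all 3 genes lie on the minus strand. Capitals mark the motif: the 10-letter NRF1 motif in Atp5g2, and the ETS letters CCGGAAG, read from the other strand as CTTCCGG, in Atp5l and Uqcrh. ETS letters are bound by GABPA among other factors.
Atp5g2: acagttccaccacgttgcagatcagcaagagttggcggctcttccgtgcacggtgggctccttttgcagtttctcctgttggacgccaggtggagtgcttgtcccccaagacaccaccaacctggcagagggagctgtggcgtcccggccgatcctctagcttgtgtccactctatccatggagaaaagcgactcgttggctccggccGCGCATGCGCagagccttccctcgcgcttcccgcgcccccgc
Atp5l: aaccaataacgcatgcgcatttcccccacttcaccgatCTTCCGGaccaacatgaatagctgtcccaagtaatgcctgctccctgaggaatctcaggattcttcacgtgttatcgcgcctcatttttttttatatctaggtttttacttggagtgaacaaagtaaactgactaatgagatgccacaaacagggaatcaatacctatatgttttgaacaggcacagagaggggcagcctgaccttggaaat
Uqcrh: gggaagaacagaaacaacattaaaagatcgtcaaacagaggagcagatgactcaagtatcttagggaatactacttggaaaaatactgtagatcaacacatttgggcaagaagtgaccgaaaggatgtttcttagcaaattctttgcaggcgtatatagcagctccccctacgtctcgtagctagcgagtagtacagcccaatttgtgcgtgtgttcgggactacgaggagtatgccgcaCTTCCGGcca
The motif begins 42 bases before the start site in Atp5g2 (chr15:102671048-102671297), 212 bases before it in Atp5l (chr9:44920743-44920992) and 10 bases before it in Uqcrh (chr4:116075071-116075320). For the counts, both strands of 300 bases were searched, from 250 before to 50 after the start site. Such sequences were found for 74 of the 89 genes and for 27025 genes in all. The 27025 are more than the 16549 genes tested, so they include genes not tested here. Shares among tested genes alone were not counted. The NRF1 letters stood in 7 of the 74 (9.46%) and in 1.07% of all genes. ETS letters stood in 19 (25.7%), against 9.93% of all genes, and the YY1 letters AAGATGGCG in 8 (10.8%), against 1.64%. The letters TCAAGGTCA of the estrogen-related receptors stood in 2 (2.7%), against 0.466%. None of these motifs contains another. Among the 28 matched genes that were lower on HFD, 1 held the NRF1 letters, 5 the ETS letters, 4 the YY1 letters and 0 those of the estrogen-related receptors. Among the other 46 the numbers were 6, 14, 4 and 2. A match is a stretch of letters and not a measured binding site.

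Genes for alternative forms of the same subunit gave different calls. The c subunit that forms the rotor ring of the ATP synthase is encoded by Atp5g1, Atp5g2 and Atp5g3, whose mature proteins are the same. Atp5g3 was the most abundant, at 165 CPM per kb, against 13.6 for Atp5g2 and 6.64 for Atp5g1. The order of the last 2 rests on the annotated exon lengths, 1675 bases for Atp5g2 and 4912 for Atp5g1. In counts over all libraries Atp5g1 (8055) lay above Atp5g2 (5656). Atp5g1 measured 27.1, 33, 41.9 and 21.6 CPM in chow-fed WT, 30.7, 20.8, 25.5 and 32 in chow-fed KO, 36.6, 36.1, 41 and 34.5 in HFD-fed WT and 36.7, 35.1, 36 and 33 in HFD-fed KO libraries. In KO all 4 HFD libraries lay above all 4 chow libraries, and the log2 fold change over both genotypes was 0.32 (95% interval 0.06 to 0.57, adjusted p = 0.0536, edgeR), which did not pass. Atp5g2 was lower on HFD (−0.34, adjusted p = 0.0429, edgeR), but its call held in only 7 of the 16 fits without 1 library (highest adjusted p = 0.0915, edgeR, without KO HFD replicate 2) and in 8 of 16 other fits (highest 0.34, with muscle scores under 4). Atp5g3 had 0.15 (−0.09 to 0.40). The intervals of Atp5g1 and Atp5g2 lie on opposite sides of 0, and the difference between them was not tested.

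Ndufa4, at 152 CPM per kb, was lower on HFD (−0.44, adjusted p = 0.0245, edgeR), while its paralog Ndufa4l2, known as a gene induced by low oxygen, had 0.32 (−0.25 to 0.90) at 8.17 CPM per kb. Ndufa4l2 ranged from 2.74 to 12.2 CPM within WT chow alone. Cox7a2 measured 164, 122, 132 and 144 CPM in chow-fed WT, 154, 187, 138 and 114 in chow-fed KO, 109, 105, 97.8 and 123 in HFD-fed WT and 91.3, 89, 114 and 108 in HFD-fed KO libraries (−0.46, adjusted p = 0.00309, edgeR). Its paralog Cox7a2l, known to join complexes III and IV into supercomplexes, had 114, 131, 94.3 and 124 CPM in chow-fed WT, 135, 129, 131 and 101 in chow-fed KO, 108, 116, 124 and 129 in HFD-fed WT and 119.7, 105, 112 and 113 in HFD-fed KO libraries. All 4 groups of Cox7a2l overlapped, and the interval of its log2 fold change (−0.05, −0.22 to 0.12) holds no decrease as large as that of Cox7a2. Cox4i1 stood at 362 CPM per kb and Cox4i2, an isoform known from lung and low oxygen, at 3.82. Neither passed the test, with −0.20 (−0.43 to 0.03) for Cox4i1 and −0.25 (−0.81 to 0.31) for Cox4i2. Cox6b1, at 285 CPM per kb, had −0.29 (−0.57 to −0.02, adjusted p = 0.0878, edgeR).

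Within single genotypes fewer genes passed, and the counts changed when single libraries were left out, as did those among all genes. In WT, 2 of the 89 genes were lower on HFD and 0 higher (edgeR), where 4.92% of all genes were called lower and 6.9% higher. The share of 2 in 89 is below that background. The genes were Ndufa6 (−0.58, SE 0.17, adjusted p = 0.0362, edgeR) and Ndufa12, an accessory subunit of the matrix arm. Ndufa12 measured 95.3, 71.2, 91.2 and 85.7 CPM in WT chow and 60.6, 65.9, 64.2 and 64.8 CPM in WT HFD, without overlap (−0.43, SE 0.13, adjusted p = 0.0423, edgeR). Besides Ndufa12, Ndufa10, Ndufb9, Ndufs4 and Cox5b had all WT HFD libraries below all WT chow libraries, 5 genes in all, where 7.43% of all genes tested did. The median log2 fold change was −0.20, with 70 of 89 genes below 0. No gene stayed called in all 16 fits without 1 library, whose counts ran from 0 to 8. Without WT chow replicate 3, the library with the highest muscle score, the median was −0.09 and 0 of the 89 genes were called. That fit called 2400 of 16822 genes tested, against 1957 of 16549 with all libraries. With only the libraries of muscle score under 4 the median was 0.028, and 70 of 17028 genes tested were called. In WT that fit kept only chow replicates 2 and 4 and HFD replicates 1 and 4. WT chow replicate 2 had the lowest mean log2 CPM of the 89 genes among the WT chow libraries (6.22). WT HFD replicate 4 was the highest WT HFD library of complexes I to V. Without it 4 of the 89 and 1665 of 16840 genes tested were called, and the median of the 89 was −0.30.

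In KO, 11 of the 89 genes were lower on HFD and 0 higher (edgeR), where 5.23% of all genes were called lower and 7.28% higher. They were Ndufv2, Ndufa6, Ndufb9, Ndufa10 and Ndufs4 of complex I, Uqcrh of complex III, Cox6c, Cox7a2, Cox7b and Cox5a of complex IV and Atp5l of complex V. The 11 genes fell by 29.2 to 41.7%, led by Cox6c, from 261 ± 82.4 to 152 ± 10.6 CPM (SD, n = 4; −0.78, SE 0.19, adjusted p = 0.0192, edgeR). Atp5l had the smallest adjusted p (0.0115, edgeR), with a fall of 0.54 on the log2 scale (SE 0.12). In 12 genes all KO HFD libraries lay below all KO chow libraries, and in 1, Atp5g1, above, where 8.47% and 10.2% of all genes tested did. The median log2 fold change was −0.32, and 85 of 89 genes lay below 0. Without KO chow replicate 2 only 1 of the 89 genes was called and the median was −0.18. Without KO HFD replicate 2, 1 was called, and without KO chow replicate 4, 28 were. Among all genes these fits called, in order, 947 of 16805, 745 of 16888 and 2714 of 16819, against 2071 of 16549 with all libraries. Atp5l alone stayed called in all 16 fits without 1 library. Without KO HFD replicate 1, which came from a single lane, 5 of the 89 and 2337 of 16841 genes tested were called. The 12 merged libraries alone gave 3 called genes in KO, 0 in WT and 31 over both genotypes, with medians of −0.27, −0.39 and −0.33. Of 17230 genes tested, 1753, 225 and 4111 were called there, in the same order. Single-lane libraries were too few, and none was KO chow, for values of their own.

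Whether loss of Kmo changed these genes was asked on each diet. None of the 89 genes passed the test between KO and WT on chow, on HFD or over both diets (edgeR), and the lone gene called among all tested was Kmo itself (0.00604% in each comparison). DESeq2, limma-voom and the other fits gave 0 as well, and the number of the 89 genes with an unadjusted p under 0.05 was 0 in each of the 3 comparisons (edgeR). On chow the median log2 fold change was 0.11, with 75 of 89 genes above 0. It was −0.05 without KO chow replicate 2, the library in which 65 genes were highest. On HFD the median was −0.02, with 33 of 89 above 0, and over both diets 0.04, with 72 above 0. The smallest unadjusted p on chow and on HFD was that of Atp5l. Its log2 fold change was 0.23 on chow (−0.02 to 0.48) and −0.18 on HFD (−0.43 to 0.07). On HFD the KO libraries of Atp5l, at 16.9, 17.9, 17.7 and 18.2 CPM, all lay below the WT libraries, at 20.9, 19.7, 20.3 and 19 CPM. It was the only one of the 89 genes without overlap in that direction, where 0.562% of all genes tested had none, and none of the 89 lay wholly above (0.858% of all genes). On chow none of the 89 separated the genotypes in either direction, where 0.26% of all genes tested were higher and 0.296% lower in KO without overlap. Ndufaf4 had the largest difference on chow, 0.42 (−0.11 to 0.95), with 23.3 ± 5.49 CPM in WT and 31.2 ± 10.9 CPM in KO (SD, n = 4). The median half-width of the 95% intervals was 0.35 on each diet and 0.25 over both, so typical genotype differences up to that size could not be detected. The intervals are not adjusted for the number of genes tested, so larger differences could be missed as well. In the authors' deposited tables, 0 of the 89 genes had an adjusted p under 0.05 on either diet.

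The diet effect was also compared between genotypes. No gene of the 89 had an interaction past the threshold (edgeR), where 0.0% of all genes tested had one, and 1 gene, Atp5l, had an unadjusted p under 0.05 (0.0278, edgeR, not significant after adjustment). Its log2 difference between the diet effects, KO minus WT, was −0.41 (−0.76 to −0.05): the log2 fold change of HFD against chow was −0.54 in KO and −0.13 in WT. The median of the 89 differences was −0.15, with 76 below 0, and it was 0.091 in the 12 merged libraries, 0.0049 without KO chow replicate 2 and −0.43 in the libraries with a muscle score under 4. Intervals of this difference extended by 0.50 to either side at the median. The larger number of lowered genes in KO than in WT is therefore not shown to be a difference between the genotypes.

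Most of the 13 subunits encoded in mitochondrial DNA were lower on HFD. Over both genotypes 11 of 13 passed the test, with a median of −0.86, all 13 below 0, and 10 passed in WT and 8 in KO (edgeR). Of all genes tested, 16% were called lower over both genotypes, 4.92% in WT and 5.23% in KO. The complex IV core subunit gene mt-Co1 had 23127 ± 4609.8 CPM in chow-fed WT, 25814 ± 7178 in chow-fed KO, 12213 ± 1480.1 in HFD-fed WT and 12617 ± 2096 in HFD-fed KO libraries (SD, n = 4; −0.98, adjusted p = 0.000489, edgeR). For complex I, mt-Nd4 fell by 1.31 on the log2 scale (adjusted p = 0.000209, edgeR), and for complex III mt-Cytb by 1.22 (adjusted p = 0.000259, edgeR). The difference between the mitochondrial and the nuclear genes was not tested. Poly-A selection and counting without strand can alter the counts of these transcripts, which was not tested, and mt-Nd6 lies opposite to other transcripts. Among the isoforms that the gene choice left out, Cox8b and Cox7a1, known from brown fat and muscle, fell by 1.67 and 1.89 (adjusted p = 0.00119 and 0.00082, edgeR). Cox6a2, of heart and muscle, had 0.19 (adjusted p = 0.852, edgeR).

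Other genes of the pathway were counted over both genotypes, where 16% of all genes tested were called lower and 17.1% higher. Shares near these percentages set a list apart in no way, and the lists were not compared by a test. Of 13 citric acid cycle genes 5 were lower on HFD over both genotypes and 0 higher, with a median of −0.24. They include Idh3b (−0.52), Suclg2 (−0.43), Idh3g (−0.40) and Fh1 (−0.31). Of 13 genes of coenzyme Q synthesis and handling 3 were lower and 0 higher, Coq10a (−0.80), Coq8a (−1.19) and Coq4 (−0.44). Of 8 further electron carriers only Gpd2, the mitochondrial glycerol 3-phosphate dehydrogenase that feeds coenzyme Q, was lower, by 2.15 on the log2 scale (adjusted p = 7.7e-05, edgeR). Cytochrome c (Cycs, −0.18) and cytochrome c1, a subunit of complex III that the choice by symbol leaves out (Cyc1, −0.19), did not pass. Assembly genes outside the chosen symbols went both ways. For complex I, 2 of 7 were higher and 0 lower, Acad9 (0.57) and Tmem126b (0.35). For complex III, Ttc19 (−0.35) and Lyrm7 (−0.54) of 6 were lower. For complex IV, 1 of 19 measured genes was lower, the copper chaperone gene Cox17 (−0.94), and Sco2 and Pet117 were listed at 0. None of the 4 complex II assembly genes passed, and of 4 complex V assembly and control genes Atpaf2 (0.31) and Atpif1 (0.28) were higher and Atpaf1 (−0.23) lower. Of 16 regulators of mitochondrial biogenesis 4 were lower and 0 higher: Ppargc1b (−0.78), Ppargc1a (−0.50), Polg2 (−0.53) and Tfam (−0.29). The factors whose letters were searched, Nrf1 (−0.09), Gabpa (−0.06), Yy1 (0.06) and Esrra (−0.24), did not pass.

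Marker lists of other cells were read against the same percentages of all genes. Of 12 brown and beige adipocyte markers 6 were lower on HFD over both genotypes and 0 higher, with a median of −0.96. This list shares Ppargc1a, Cox8b and Cox7a1 with lists above. Ucp1 measured 26.7, 27.7, 10.5 and 222 CPM in chow-fed WT, 141, 172, 73.6 and 32.9 in chow-fed KO, 0.572, 0.766, 2.99 and 1.83 in HFD-fed WT and 1.06, 0.934, 1.11 and 0.837 in HFD-fed KO libraries, so every HFD library lay below every chow library. Cidea, a lipid droplet protein of brown fat, fell by 2.67 (adjusted p = 0.000141, edgeR). The summed level of the list was 380 to 890 CPM for WT and 405 to 1012 CPM for KO on chow, against 226 to 279 CPM for WT and 199.6 to 304 CPM for KO on HFD, and no marker of the list was at 0. Its part in the lower level of the 89 genes was not tested. Of 10 adipocyte markers 2 were higher and 1 lower, and of 8 endothelial, 10 macrophage and 8 fibroblast markers 4, 2 and 2 were higher and 0 lower. The shares of the adipocyte, macrophage and fibroblast lists lie near the 17.1% of all genes. None of 13 muscle and 15 lymphoid markers passed, with medians of −0.74 and −1.18. With both the muscle and the lymphoid score as covariates 52 of the 89 genes were lower over both genotypes, with a median of −0.33. In that fit 2542 of 16549 genes tested were lower.

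**Figure D5:**
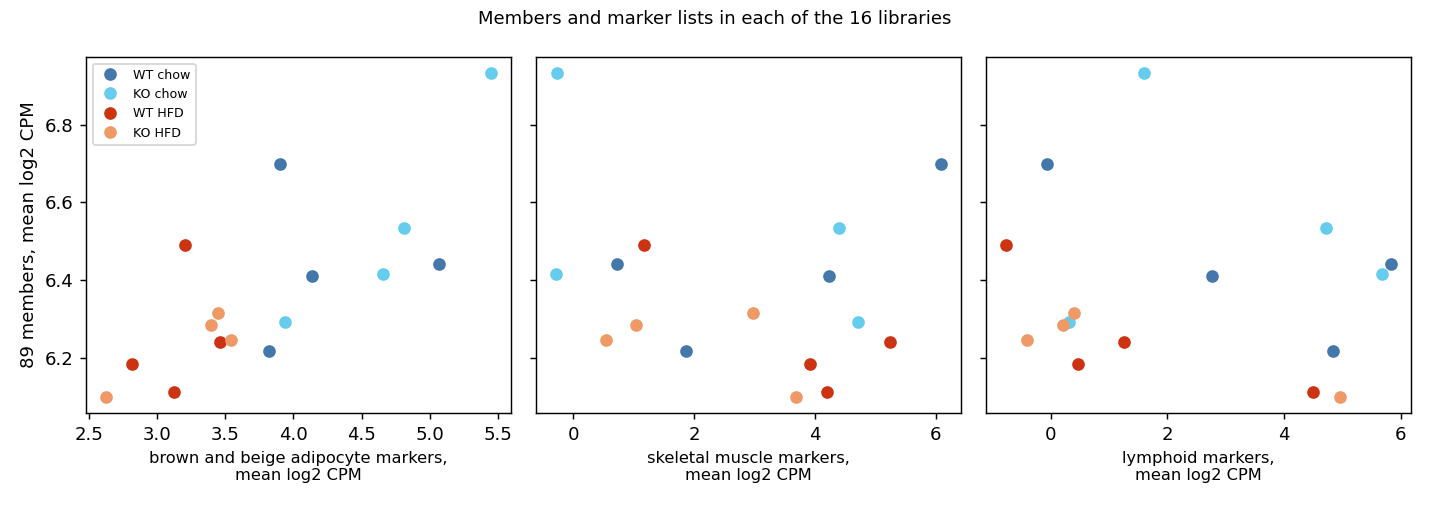
Mean log2 CPM of the 89 genes in each of the 16 libraries against the mean log2 CPM of the brown and beige adipocyte list (left), the skeletal muscle list (middle) and the lymphoid list (right), coloured by group. KO chow replicate 2 is the highest point of each panel, with the highest brown and beige score (5.45), and WT chow replicate 3 has the highest muscle score (6.09).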

How the data were processed

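Poly-A RNA was sequenced from 16 iWAT samples with a stranded kit and paired reads, per the labels. The submitters' processing notes name STAR 2.7.3a and the GRCm38.p6 build. Per the file headers, the deposited counts are read pairs assigned by featureCounts 2.0.3 to Ensembl 102 genes without regard to strand, and they are whole numbers that were not normalised. Reads of overlapping or antisense genes therefore cannot be told apart, and genes with near-identical pseudogene copies are uncertain. Log2 fold changes and adjusted p-values of the authors' own genotype comparisons, deposited for both diets, are used only where credited. The depth of 13824404 to 16909361 counted pairs puts 1 CPM at 14 to 17 counts. Columns were matched to animals through the code each name carries.

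The software was edgeR 4.0.16, with DESeq2 1.42.0 and limma 3.58.1 for alternatives, under R 4.3.3. After filterByExpr 16549 of 55487 genes were tested. A quasi-likelihood model of the 4 group means, with TMM factors and robust estimates, was fitted to all 16 libraries, and the Benjamini-Hochberg method adjusted p-values across the 16549 genes. An adjusted p under 0.05 was called. The 7 comparisons share groups with one another. CPM values use TMM factors, log2 CPM has a prior count of 2, and intervals are 95% intervals. The fit was also run on simulated counts. Each gene was drawn independently there, so the simulation does not show how the fit handles genes that vary together. The gene choice, the gene lists and the tests were made with earlier results of these data known. In each comparison the text names called genes, up to 3 per complex by adjusted p, the genes with the smallest p where fewer than 5 were called, the most abundant gene and the largest change of each complex, the complex II genes and the paralogs. Of each list it names up to 4 genes, called ones first. Others were named after their values were seen. Some genes that the rule names are not reported here. Promoters shown are those of the called genes with the smallest p whose 250 bases before the start site hold the NRF1 or estrogen-related receptor letters, then the ETS letters. Replicates are separate animals. Every 2 libraries differed beyond sampling noise (chi-square per gene at least 9.69).

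Alternatives were other scaling factors, DESeq2, limma-voom, other filters, a threshold of 0.10, muscle and lymphoid scores or a single-lane term as covariates, the replicate number as a block, the comparison's own libraries, and leaving out each library. Added after seeing the data were fits on only the 12 merged libraries, and on the 10 libraries with a lymphoid or a muscle score under 4.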

Additional observations from a re-analysis of the deposited data

Results flagged for a closer look

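In 10 of 224 checks of a group of 4 libraries, 1 library lay far from the other 3 by Dixon's test, where chance flags about 1 in 20 groups. KO HFD replicate 1 was low for complex III, at a mean log2 CPM of 6.84 against 7.05 to 7.08 in the other KO HFD libraries, and for Atp5g3, at 8.28 against 8.62 to 8.65. KO HFD replicate 2 was low for Atp5g2 (4.02 against 4.43 to 4.5). WT HFD replicate 4 was high for Cox6b1 (7.78 against 7.38 to 7.41) and for Ndufa6 (6.13 against 5.66 to 5.72). WT chow replicate 3 was high for Ndufb7 (6.76 against 6.13 to 6.22) and for Ndufc2 (6.83 against 6.63 to 6.66). In KO chow, replicate 1 was high for Atp5g2 (4.94 against 4.43 to 4.47), replicate 2 was high for Ndufa2 (7.15 against 6.40 to 6.49), and replicate 4 was low for Cox7a2l (6.66 against 7.02 to 7.08).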

How the results depend on the processing

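No value past the threshold changed direction under any of the alternatives run, and the 0 calls of the genotype comparisons and of the interaction stayed at 0 in all of them. Counts of the diet comparisons moved. In WT (2 genes) they were 6 with DESeq2, 5 with limma-voom, 6 with upper-quartile factors, 1 without a filter, 9 at a threshold of 0.10, 9 with the lymphoid score and 11 with both scores as covariates. They were 0 with the single-lane term, in the merged libraries, and with lymphoid or muscle scores under 4, where the median of the last was 0.028. Among all genes tested these fits called, in order, 1655 of 16549, 225 of 17230, 625 of 16436 and 70 of 17028. The main fit called 1957 of 16549 in WT, DESeq2 2778, limma-voom 2501 and upper-quartile factors 1933. With the lymphoid score 1992 were called, with both scores 2226, and without a filter 1245 of 33410. Leaving out 1 library gave 0 to 8 of the 89 genes. In KO (11 genes) the counts were 22 with DESeq2, 18 with upper-quartile factors, 7 without a filter, 24 at 0.10, 24 with the lymphoid score, 30 with both scores, 6 with the single-lane term, 3 in merged libraries, 0 with lymphoid scores under 4, 19 with muscle scores under 4 and 5 with only the libraries compared. Leaving out 1 library gave 1 to 28. Among all genes tested in KO, the merged libraries gave 1753 of 17230, lymphoid scores under 4 gave 768 of 16436 and muscle scores under 4 gave 2313 of 17028. The main fit called 2071 of 16549, DESeq2 2837, upper-quartile factors 2032 and the single-lane term 1771. With the lymphoid score 2275 were called and with both scores 2767. Without a filter 1284 of 33410 were called, and with only the libraries compared 1468 of 15327. Over both genotypes (34 genes) the counts were 52 with both scores, 14 with lymphoid and 12 with muscle scores under 4, and 23 to 42 without 1 library. Among all genes tested the first 3 of these fits called 5276 of 16549, 3544 of 16436 and 4152 of 17028, against 5471 in the main fit. The cause of these changes was not tested. The subsets hold fewer libraries, with 2 in the smallest group. The median of KO against WT on chow was 0.34 with muscle scores under 4, and −0.05 to 0.20 without 1 library. The interaction median was 0.091 in merged libraries, −0.43 with muscle scores under 4 and −0.24 to 0.0049 without 1 library. Of the 34 genes, 9 were called in every fit: Cox6c, Cox7a2, Cox7b, Ndufa10, Ndufa6, Ndufb9, Ndufs4, Ndufv2 and Uqcrb.

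Same-numbered libraries of different groups did not deviate together (24 pairs, r from −0.69 to 0.55, median −0.22), and 5 of 16 libraries correlated best with one of their own number. With the replicate number as a block 0 of the 89 genes were called in WT, 1 in KO and 24 over both genotypes. Among all 16549 genes tested that fit called 1050, 1126 and 4646, in the same order, against 1957, 2071 and 5471 without the block.

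The median half-width of the intervals, 0.35 for a difference between 2 groups of 4 animals, limits what can be shown.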
